A study of Homo sapiens with 4 samples.

Results

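The mRNAs for the proteins of the mitochondrial ribosome were followed in A549 cells, an established human line of lung carcinoma epithelium, after knockdown of PSME4. Genes were taken by symbol, as those beginning with MRPL (large subunit) or MRPS (small subunit) and a digit. Of the 15037 genes in the count table, 81 met that pattern. The pseudogenes MRPL45P2 and MRPS31P5 were left out, as were MRPL20-AS1 and MRPS30-DT, which encode no protein, and 1 further gene is not reported here. The remaining 76 members comprised 48 MRPL and 28 MRPS genes. All 76 had enough counts to be tested. MRPS24 was not analysed here.

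Polyadenylated RNA was sequenced from 4 libraries. In 2 of them PSME4, a proteasome activator, had been knocked down (PSME4 KD), and in the other 2 the knockdown was directed at RFP, a fluorescent protein, per the genotype labels (control KD). The title of the series concerns the response of lung tumours to immunotherapy. The labels give no time after knockdown and do not say how the knockdown was made or if replicates were grown as separate cultures. The p-values therefore describe the spread among these 4 libraries alone, and it may be technical. PSME4 mRNA was at 158 and 180 CPM (read counts scaled to library size, by the TMM method) in the controls, against 75.3 and 85.1 CPM after its knockdown, so that the groups did not overlap.

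Mitochondrial ribosomes translate the few mRNAs of the mitochondrial genome, which encode core subunits of the respiratory chain. Their RNAs come from the mitochondrial genome, whereas all of their proteins are encoded in the nucleus, made in the cytosol and imported. Some of these proteins descend from those of bacterial ribosomes and others have no bacterial relative. Promoters of nuclear genes for mitochondrial proteins are known for sites of ETS factors such as GABPA, of NRF1 and of YY1.

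Promoter windows of 6 members are shown as examples. Of these genes, 5 changed after the knockdown and MRPS34 came close to the threshold. MRPL10 and MRPL21, which also changed, are not shown. The windows hold the 120 bases before an annotated transcription start in RefSeq (GRCh38.p14), 5′ to 3′ on the strand of the gene. Capitals mark the letters CCGGAAG (ETS) or AAGATGGC (YY1) or their reverse complements CTTCCGG and GCCATCTT. MRPS2 is at chr9:135499845-135499964 (plus strand), MRPL41 at chr9:137551759-137551878 (plus), MRPL27 at chr17:50373185-50373304 (minus), MRPL42 at chr12:93467394-93467513 (plus), MRPL36 at chr5:1799838-1799957 (minus) and MRPS34 at chr16:1773135-1773254 (minus).
MRPS2: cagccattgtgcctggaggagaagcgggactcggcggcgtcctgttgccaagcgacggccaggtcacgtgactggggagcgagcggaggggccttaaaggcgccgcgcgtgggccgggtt
MRPL41: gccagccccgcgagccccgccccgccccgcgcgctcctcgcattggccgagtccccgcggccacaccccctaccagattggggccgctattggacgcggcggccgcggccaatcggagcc
MRPL27: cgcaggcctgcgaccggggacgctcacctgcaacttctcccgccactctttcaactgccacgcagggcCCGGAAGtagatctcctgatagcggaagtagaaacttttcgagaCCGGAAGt
MRPL42: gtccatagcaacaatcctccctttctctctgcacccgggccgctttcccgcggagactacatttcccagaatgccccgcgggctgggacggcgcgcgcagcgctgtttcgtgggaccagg
MRPL36: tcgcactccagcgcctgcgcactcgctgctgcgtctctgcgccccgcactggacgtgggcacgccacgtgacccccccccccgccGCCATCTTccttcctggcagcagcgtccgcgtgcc
MRPS34: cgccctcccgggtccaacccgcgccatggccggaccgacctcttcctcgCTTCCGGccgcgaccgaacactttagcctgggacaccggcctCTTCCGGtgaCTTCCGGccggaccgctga

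MRPS2 and MRPL41, at the top, have no marked letters in this stretch, MRPL27 holds the ETS letters 2 times, first at −52 from the start, and MRPS34 holds them 3 times, first at −71. In MRPL36 the YY1 letters begin at −35, while in MRPL42 they begin 8 bases after the start and so lie beyond the printed stretch. MRPL39 and MRPS33, about as close to the threshold as MRPS34, are not printed and have no marked letters in such a stretch. For an annotated start of MRPS33 the ETS letters begin at the start itself and so lie beyond it.

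Promoters of 69 of the 76 members were in the RefSeq table, each from 250 bases before to 50 bases after a start, and both strands were searched. The ETS letters CCGGAAG were in 30 of these 69 members (43.5%), against 22.1% of 10689 tested genes with a promoter and 12.2% of all 27305 genes in the table. They were also in 34.9% of promoters of cytosolic ribosomal proteins and in 32.3% of those of nuclear respiratory chain genes. In the large subunit 18 of 42 promoters (42.9%) held the ETS letters, and in the small 12 of 27 (44.4%). The YY1 letters AAGATGGC were in 20 of 69 members and in 6.48% of tested genes. They were also in 19.4% of promoters of nuclear respiratory chain genes and in 11.1% of those of cytosolic ribosomal proteins. The letters GCGCATGC, the core of an NRF1 site, were in 6 members (8.70%), in 6.51% of tested genes and in 22.6% of respiratory chain promoters. Members with the ETS letters had a median log2 fold change of −0.058 and those without had −0.070. For the YY1 letters these medians were 0.024 and −0.089, and for the NRF1 core 0.067 and −0.087. A match gives the presence of these letters only.

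Of the 76 members, 4 rose and 3 fell in PSME4 KD cells and 69 did not pass the test. In bulk RNA, fewer cells with a transcript and less of it per cell cannot be told apart. The 4 that rose were MRPS2, MRPL41, MRPL27 and MRPL10, and the 3 that fell were MRPL42, MRPL21 and MRPL36. The test was the quasi-likelihood F test of edgeR, with p-values adjusted by Benjamini-Hochberg over 13497 genes and a threshold of 0.05, and every adjusted p given here comes from it. The 7 changed members made 9.21% of the 76, beside 10.6% of all genes tested, of which 4.56% were higher and 6.0% lower. The share of changed members was thus close to that of all genes. The median log2 fold change over the members was −0.063, against −0.0021 over all genes, with 35 members above 0 and 41 below. That median was 0.034 without control KD 1 and between −0.13 and −0.022 with each of the other libraries left out. Before adjustment, 24 members (31.6%) had a p below 0.05, beside 26.2% of all genes tested. For 47 members (61.8%), 20 higher and 27 lower, both PSME4 KD libraries lay on the same side of both controls, while 55.0% of all genes tested had this property.

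**Figure D1:**
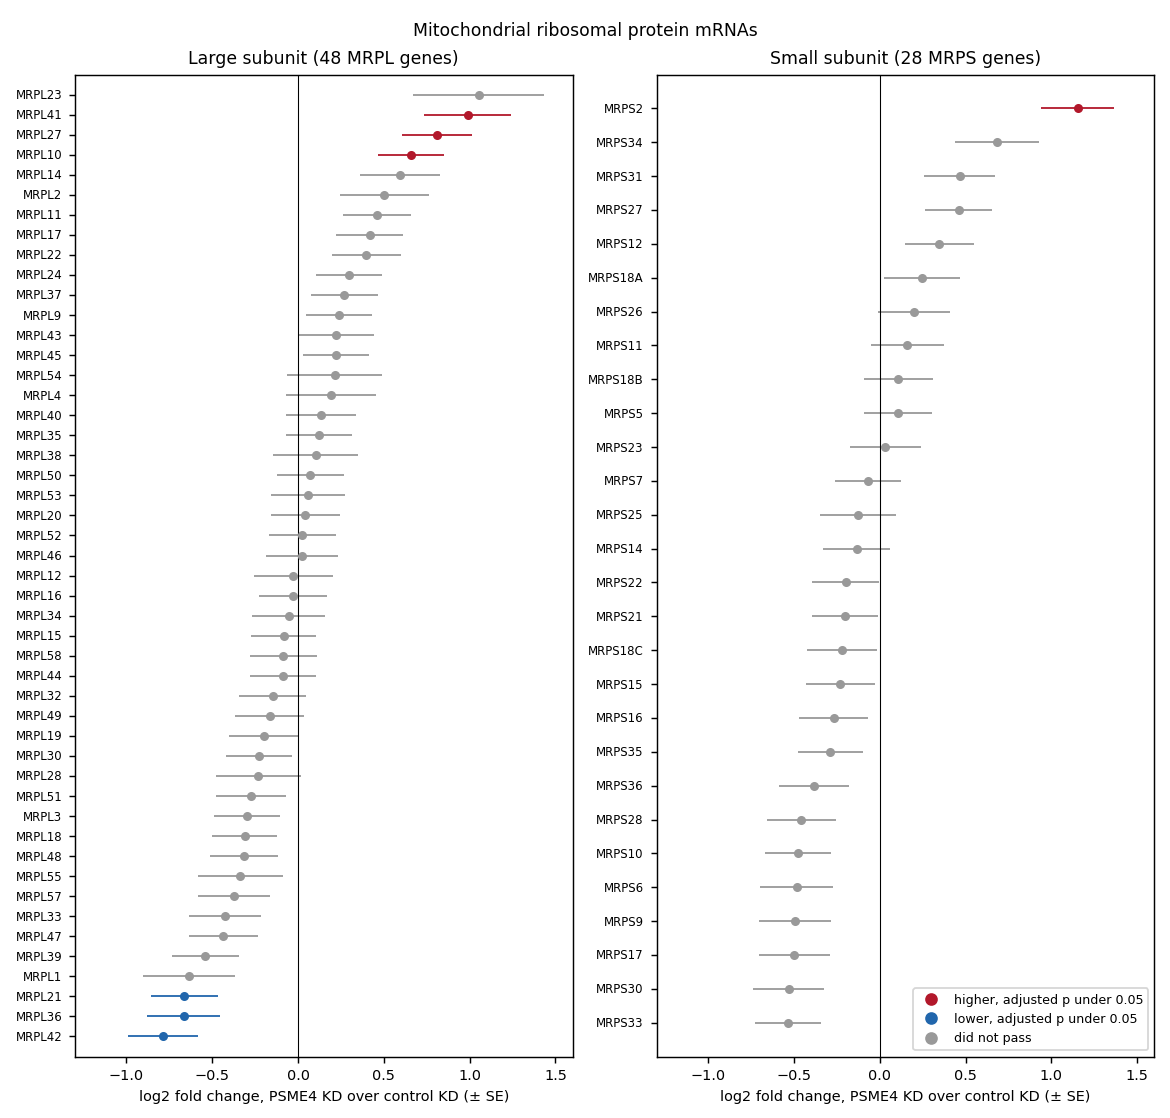
Log2 fold change (PSME4 KD over control KD, x axis) of each of the 76 members with its standard error, ordered by value in the large (48 genes) and the small (28 genes) subunit. Red points (4) were higher and blue points (3) lower with an adjusted p under 0.05, and the grey points, 69 in all, did not pass; values ran from −0.78 (MRPL42) to 1.15 (MRPS2).

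Among the members, MRPS2, the counterpart of a bacterial small-subunit protein, changed most. It stood at 30.0 and 26.6 CPM in the control libraries, and 71.4 and 54.5 CPM in the PSME4 KD libraries. Both PSME4 KD libraries lay well above both controls. The log2 fold change was 1.15 (SE 0.21), a 2.22-fold rise, with an adjusted p of 0.00091 (edgeR). The gene lies at positions 135499965 to 135504673 of chromosome 9 and overlaps LOC101928525, and its value rests on 656 control counts and 1917 counts after PSME4 knockdown.

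MRPL41, a large-subunit protein without a bacterial relative, rose from a low level. Its values were 8.57 and 8.68 CPM in the control KD libraries and 19.7 and 14.6 CPM in the PSME4 KD libraries. The controls nearly coincided and the groups did not overlap. Its log2 fold change was 0.99 (SE 0.25, adjusted p = 0.0131, edgeR). Like MRPS2, it lies on chromosome 9, at positions 137551879 to 137552555, where it overlaps LOC124902317. MRPL50, the other member on that chromosome, was at 0.072 (SE 0.19) and did not pass.

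MRPL27 and MRPL10 are counterparts of bacterial large-subunit proteins; the first sits close to the site of peptide bond formation and the second anchors the stalk that recruits translation factors. MRPL27 was at 58.6 and 52.3 CPM in the control libraries and 85.5 and 108.8 CPM in the knockdown libraries. MRPL10 was at 83.4 and 91.2 CPM in the controls, against 139.9 and 135.8 CPM after PSME4 knockdown. In neither gene did the groups overlap, and for MRPL10 each pair of libraries lay close together. MRPL27 rose by 0.81 (SE 0.20, adjusted p = 0.0113, edgeR) and MRPL10 by 0.66 (SE 0.19, adjusted p = 0.0285) on the log2 scale. Both genes lie on chromosome 17, MRPL27 at 50367867 to 50373184 and MRPL10 at 47823272 to 47831541. The latter lost its call after correction for GC content (0.50, adjusted p = 0.0659, edgeR).

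Of the 3 that fell, MRPL42 is a large-subunit protein without a bacterial relative. It was at 135.5 and 156.5 CPM in the control libraries and 97.6 and 71.8 CPM in the knockdown libraries, so that the groups stood apart while the PSME4 KD libraries themselves differed. The log2 fold change was −0.78 (SE 0.20, adjusted p = 0.0140, edgeR). After correction for GC content it was −0.44 (adjusted p = 0.1005), past no threshold. The gene spans 93467514 to 93516214 on chromosome 12 and overlaps RN7SL737P.

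MRPL21 and MRPL36 have bacterial counterparts in the large subunit. MRPL21 was at 150.8 and 129.8 CPM in the controls, against 91.0 and 86.4 CPM after PSME4 knockdown. It fell by 0.66 (SE 0.19, adjusted p = 0.0286, edgeR) and by 0.72 after correction for GC content. MRPL36 was at 110.1 and 69.8 CPM in the control libraries and 58.2 and 55.2 CPM in the knockdown libraries. Here the control libraries differed from each other by more than control KD 2 differed from the PSME4 KD libraries. The log2 fold change of MRPL36 was −0.67 (SE 0.21, adjusted p = 0.0432, edgeR), −0.30 if control KD 1 was left out and −0.95 if control KD 2 was, and it lost its call by DESeq2 and by limma voom. MRPL21 lies at 68891278 to 68903832 on chromosome 11. MRPL36 lies at 1798385 to 1801434 on chromosome 5 and overlaps NDUFS6, so reads of these genes may have been shared.

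**Figure D2:**
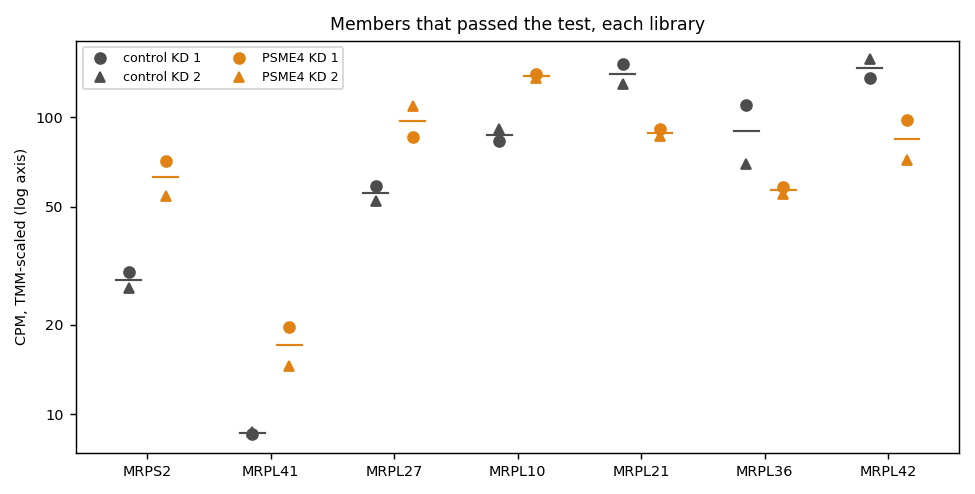
TMM-scaled CPM (log axis) of the 7 members that passed the test in each library, with circles for replicate 1, triangles for replicate 2 and a line for the group mean. For MRPS2, MRPL41, MRPL27 and MRPL10 the PSME4 KD points lie above both control points, and for MRPL21, MRPL36 and MRPL42 below both.

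These calls rested on all 4 libraries. With control KD 1, control KD 2 or PSME4 KD 1 left out, these 7 calls were lost, as were most calls over all genes. In each such fit 1 group holds a lone library. DESeq2 and voom were not run on 3 libraries. Without PSME4 KD 2, the 4 members MRPL23, MRPL41, MRPS2 and MRPS34 passed, with 281 of all genes. The sign of each of the 7 fold changes was the same in these 4 fits, from 0.95 to 1.36 for MRPS2 and from −0.76 to −0.55 for MRPL21. In the authors' deposited table, made from the same 4 libraries, 6 members were past 0.05 in its column padj, namely the 7 above without MRPL36. A further adjusted column of that table was not read, and the share of all genes past 0.05 in it was not counted.

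Some members came near the threshold without passing. MRPL23, at the rim of the tunnel through which new peptides leave, was at 4.85 and 2.24 CPM in the controls, against 10.6 and 4.13 CPM after PSME4 knockdown. Its groups overlapped, and its log2 fold change of 1.05 (SE 0.38, adjusted p = 0.0733, edgeR) was 0.23 without PSME4 KD 1 and 1.71 without control KD 1. It overlaps several transcripts of the H19 locus, MRPL23-AS1 among them. MRPS34, a small-subunit protein without a bacterial relative, was at 19.0 and 16.5 CPM in the control libraries and 35.7 and 21.3 CPM in the knockdown libraries. Its log2 fold change was 0.68 (SE 0.24, adjusted p = 0.0703), which was 0.26 without PSME4 KD 1 and 1.04 without PSME4 KD 2. MRPL14, the counterpart of a bacterial large-subunit protein, stood at 0.59 (SE 0.23, adjusted p = 0.0993) with groups that did not overlap. It was 0.39 without PSME4 KD 1. At the other end, MRPL1, a protein of the flexible L1 stalk beside the tRNA exit site, was at 16.8 and 17.7 CPM against 14.6 and 7.61 CPM, a value of −0.64 (SE 0.27, adjusted p = 0.124) that was −1.18 without PSME4 KD 1 and −0.21 without PSME4 KD 2. MRPL39, a protein related to threonyl-tRNA synthetase, stood at −0.54 (SE 0.20, adjusted p = 0.0744) and MRPS33 at −0.53 (SE 0.19, adjusted p = 0.0744).

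Large and small subunit were then compared. Of the 48 MRPL genes, 3 rose and 3 fell (12.5%), and of the 28 MRPS genes 1 rose and none fell (3.57%), beside 10.6% of all genes. Before adjustment, 13 MRPL (27.1%) and 11 MRPS genes (39.3%) had a p below 0.05, beside 26.2% of all genes. The median log2 fold change was −0.0029 in the large subunit, with its middle values between −0.28 and 0.23 (quartiles) and 24 genes on each side of 0. In the small subunit the median was −0.17, the quartiles were −0.40 and 0.17, and 17 of 28 genes were below 0. The medians differed by 0.16, large minus small. With MRPS30 and MRPS18A moved to the large subunit, where their proteins sit, and MRPS36 set aside, they were −0.0029 over 50 genes and −0.13 over 25, the latter 0.0057 without control KD 1.

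**Figure D3:**
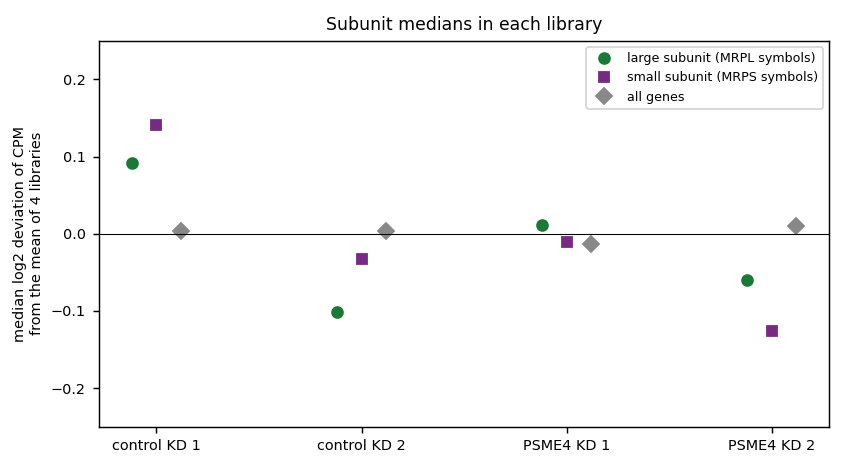
Median log2 deviation of CPM from the mean of the 4 libraries (y axis) over the large subunit (48 genes), the small subunit (28 genes) and all genes tested, in each library. Control KD 1 is highest for both subunits (0.092 and 0.14), and control KD 2 is lowest for the large subunit (−0.10) whereas PSME4 KD 2 is lowest for the small (−0.13); all genes stay between −0.013 and 0.0097.

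The control libraries were not alike in these genes. In control KD 2, 56 of 76 members were lower than in control KD 1, with a median log2 difference of −0.18 where all genes had −0.012. The large subunit summed to 4237 and 3924 CPM in the controls (replicates 1 and 2), against 3943 and 3909 CPM after PSME4 knockdown. For the small subunit the sums were 2804 and 2528 CPM, against 2501 and 2332 CPM. Control KD 2 was thus level with the knockdown libraries in the first sum and near PSME4 KD 1 in the second. The median fold change of the large subunit changed sign with the control used, being 0.12 when control KD 1 was left out and −0.11 when control KD 2 was. That of the small subunit was −0.049 and −0.23 in the same fits. The difference between the subunits, being 0.16 and 0.12 there, did not change sign.

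Subunits also differed in base composition, with a median GC content of 51.1% for large-subunit transcripts and 47.0% for small-subunit ones. Across the 76 members, Spearman's rho between GC content and log2 fold change was 0.53, and between GC content and the difference of control KD 2 from control KD 1 it was −0.51. These are descriptions across genes that share the same 4 libraries, and over all genes the corresponding values were 0.41 and −0.49. The 4 members that rose were all among the 25 of highest GC content (53.1% to 71.9%, median log2 fold change 0.24). That bin held 20 large-subunit and 5 small-subunit genes. The 25 of lowest GC content (35.0% to 46.4%) had a median of −0.29, with 1 lower call, MRPL42.

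A correction that removes each library's trend on GC content left 7 members past the threshold, 5 higher and 2 lower, where 8.74% of all genes passed. MRPS2, MRPL41, MRPL27, MRPL21 and MRPL36 were among them. MRPL22, at the exit tunnel, and MRPS31, in the head of the small subunit, were the other two, at 0.63 (adjusted p = 0.0254, edgeR) and 0.73 (adjusted p = 0.0124). They are named here after their values were seen. The subunit medians were then −0.076 (large) and −0.048 (small), and their difference was −0.028 instead of 0.16.

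**Figure D4:**
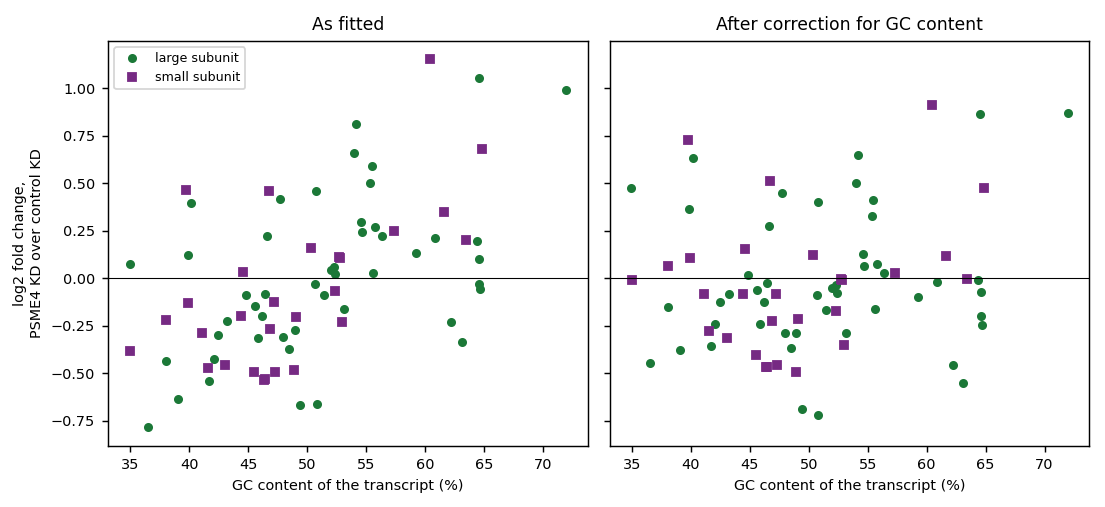
Log2 fold change (PSME4 KD over control KD, y axis) of the 76 members against the GC content of a transcript of each gene (x axis, percent), before (left) and after (right) correction for GC content; circles are large-subunit and squares small-subunit genes. Spearman's rho is 0.53 on the left and 0.16 on the right.

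Members were also grouped by their position in the ribosome. Ribosomal proteins with other symbols, such as DAP3, were not placed in these groups. At the rim of the exit tunnel, 5 of 6 members were above 0, MRPL17, MRPL22, MRPL23, MRPL24 and MRPL45, with a median log2 fold change of 0.35. By edgeR, DESeq2 and limma voom 0 of the 6 passed, and 3 had an unadjusted p below 0.05 (edgeR), as 26.2% of all genes did. The median of these 6 was 0.36 after correction for GC content. MRPL45, which tethers the ribosome to the inner membrane, was at 147.8 and 158.9 CPM in the controls, against 161.9 and 195.3 CPM after PSME4 knockdown. MRPL47 was the member below 0, at −0.44 (SE 0.20), and was among the 3 with an unadjusted p below 0.05 (edgeR). In the head of the small subunit, 6 of 7 were below 0 with a median of −0.29. That median was −0.17 after correction for GC content. By the same tools 0 of the 7 passed, and 4 had an unadjusted p below 0.05 (edgeR), beside the same 26.2% of all genes. MRPS31, the member above 0 at 0.47 (SE 0.21), was among these 4. MRPS9, whose bacterial counterpart touches the tRNA in the peptidyl site, was at 66.6 and 66.5 CPM in the control libraries and 55.8 and 38.6 CPM in the knockdown libraries, which did not pass.

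In the factor-binding stalk, MRPL10 rose, MRPL11 was at 0.46 (SE 0.20) and did not pass, and MRPL12 was at −0.029 (SE 0.23). MRPL12 forms the mobile arms of the stalk and also binds the mitochondrial RNA polymerase. It was at 81.5 and 43.9 CPM in the controls, against 66.7 and 56.3 CPM after PSME4 knockdown, so that the controls bracketed the knockdown libraries. Its sign depended on the fit, from −0.40 to 0.48 with a library left out. Of 7 members of the central protuberance, the bulge that faces the small subunit, MRPL27 rose (14.3%, beside 10.6% of all genes tested). The other 6 did not pass, and the median of the 7 was 0.023. This median turned with the library left out, being 0.30 and −0.26 when the first or second control was dropped and −0.12 and 0.11 when the first or second PSME4 KD library was.

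**Figure D5:**
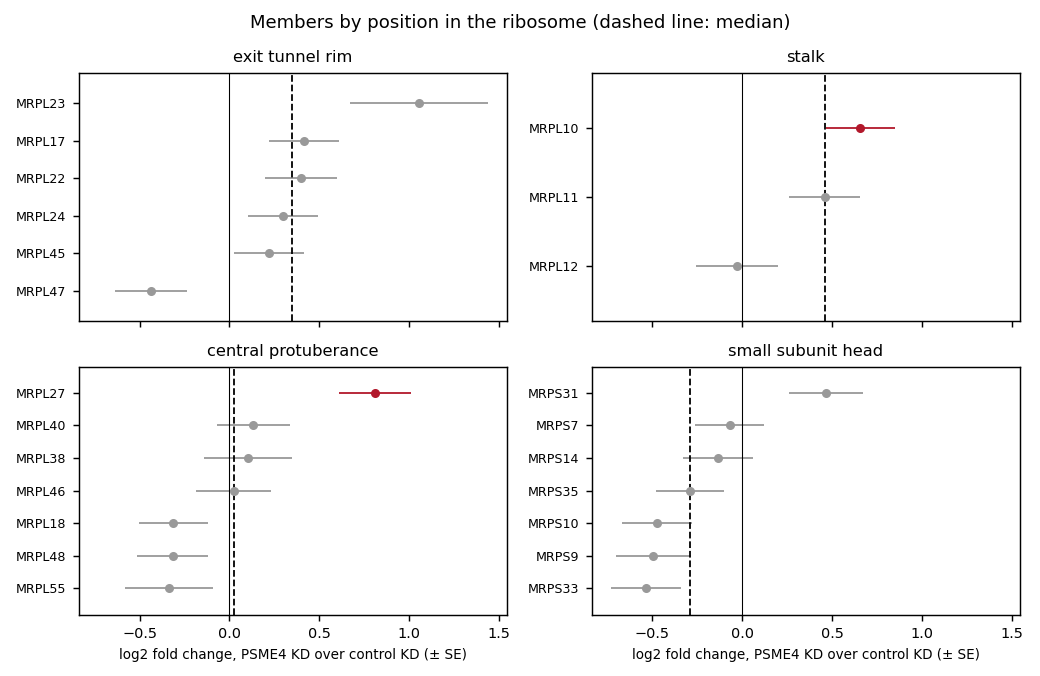
Log2 fold change (PSME4 KD over control KD, x axis) with standard error of the members at 4 places in the ribosome: exit tunnel rim (6), stalk (3), central protuberance (7) and small-subunit head (7). Dashed lines are medians, at 0.35, 0.46, 0.023 and −0.29, and the red points, MRPL10 and MRPL27, passed the test.

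By origin, 44 members are named in the uniform nomenclature after a bacterial ribosomal protein. They held 3 higher and 2 lower calls (11.4%, beside 10.6% of all genes tested) and had a median of −0.11, with 17 above 0. The 31 with names of their own include MRPS18A and MRPS18B, although these are related to a bacterial protein. Those 31 held 1 higher and 1 lower call (6.45%), MRPL41 and MRPL42, and had a median of 0.032, with 18 above 0. Both medians turned sign with 1 library left out, the first being 0.012 without control KD 1 and the second −0.072 without control KD 2 and −0.097 without PSME4 KD 1. After correction for GC content the medians were −0.086 and −0.073.

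Related and unusual members did not pass the test. The paralogs MRPS18A, MRPS18B and MRPS18C, which share a bacterial ancestor, were at 0.25 (SE 0.22), 0.11 (SE 0.20) and −0.22 (SE 0.20). The sign of MRPS18B turned to −0.0038 and that of MRPS18C to 0.062 after correction for GC content. MRPS30 and MRPL37, which resemble each other in sequence and both sit in the large subunit, were at −0.53 (SE 0.21, adjusted p = 0.0983, edgeR) and 0.27 (SE 0.19). MRPS30 was at 73.1 and 57.8 CPM in the control libraries and 50.5 and 40.1 CPM in the knockdown libraries, whose ranges did not overlap. MRPS12, of the decoding centre, was at 0.35 (SE 0.20). MRPL58, a peptidyl-tRNA hydrolase built into the large subunit, was at −0.086 (SE 0.19), with all 4 libraries between 70.4 and 77.6 CPM. MRPS36, now regarded as a part of the oxoglutarate dehydrogenase complex and named KGD4 in RefSeq, was at −0.38 (SE 0.20).

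Levels per length were compared between genes as CPM per kb of a GENCODE 29 transcript, in the control KD libraries. MRPS33 was highest at 309 and 296 CPM per kb, followed by MRPL33 at 212 and 254 and MRPL19 at 194 and 257. The last 2 could not be separated from each other, or from MRPL21, MRPL51, MRPL52 and MRPS15, since their control values overlapped. The lowest were MRPL23 at 7.54 and 3.48, MRPS25 at 7.04 and 5.31 and MRPL2 at 7.95 and 5.09 CPM per kb, which overlapped one another and also MRPL4 and MRPL41. MRPS33, MRPL33, MRPL19, MRPL23, MRPS25 and MRPL2 did not pass the test, whereas MRPL21 and MRPL41 did. MRPL19 was at −0.20 (SE 0.20) and MRPS25 at −0.12 (SE 0.22). The level of MRPL41 was taken over a transcript of 1262 bases, longer than its RefSeq span.

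Genes that serve the same ribosome were taken from lists. Of 5 ribosomal proteins with other symbols, 0 passed by edgeR, DESeq2 or limma voom, 0 had an unadjusted p below 0.05 (edgeR), and the median log2 fold change was −0.18 (−0.024 without control KD 1). DAP3, the GTP-binding protein of the small subunit, was at 0.19 (SE 0.19), PTCD3 at −0.18 (SE 0.19), CHCHD1 at −0.19 (SE 0.21) and AURKAIP1 at −0.27 (SE 0.26). Of 25 assembly factors, 1 rose and 2 fell, where 10.6% of all genes tested passed. ERAL1, a GTPase that binds the RNA of the small subunit, rose by 0.68 (SE 0.20, adjusted p = 0.0294, edgeR), whereas GTPBP10, a GTPase of large-subunit assembly, fell by 0.81 (SE 0.22, adjusted p = 0.0182). MTERF3, which also acts in the assembly of the large subunit, fell by 0.79 (SE 0.22, adjusted p = 0.0191). FASTKD2, an RNA-binding protein, was at −0.57 (SE 0.19, adjusted p = 0.0586). After correction for GC content ERAL1, GTPBP10 and MTERF3 did not pass (adjusted p from 0.0677 to 0.137, edgeR). In that fit 1 of the 25 assembly factors was past the threshold, where 8.74% of all genes were. It was YBEY, named after its value was seen, and was lower.

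Of 16 translation factors, 1 rose and 1 fell (12.5%), beside 10.6% of all genes tested. TUFM, the mitochondrial elongation factor that brings aminoacyl-tRNA to the ribosome, was at 65.2 and 45.8 CPM in the controls, against 153.4 and 103.0 CPM after PSME4 knockdown. It rose by 1.21 (SE 0.22, adjusted p = 0.000901, edgeR), and by 0.99 after correction for GC content. SLIRP, which stabilises mitochondrial mRNAs together with LRPPRC, was at 425 and 332 CPM in the control libraries and 249.8 and 190.3 CPM in the knockdown libraries. It fell by 0.78 (SE 0.20, adjusted p = 0.0142), and LRPPRC was at −0.37 (SE 0.19, adjusted p = 0.224). The mitochondrially encoded mRNAs were not analysed here.

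The share that passed over all genes tested was 10.6%. Beside it, 20 of 76 nuclear genes for respiratory chain subunits passed (11 higher, 9 lower, 26.3%), with a median of 0.13. Of 79 cytosolic ribosomal protein genes 20 passed (13 higher, 7 lower, 25.3%), with a median of 0.19. Dropping control KD 1 raised these medians to 0.22 and 0.33. The respiratory median was lowest, 0.015, when control KD 2 was dropped, and the cytosolic median, 0.056, when PSME4 KD 1 was. COX6B1, of cytochrome c oxidase, was at 1.08 (SE 0.20) and NDUFC2, of complex I, at −1.08 (SE 0.23), both past the threshold. After correction for GC content 10 of the respiratory and 11 of the cytosolic genes passed, where 8.74% of all genes did. The share of the mitochondrial ribosomal protein genes was 9.21%. Their control median was 74.4 CPM (not scaled to length), below the 164 and 1063 CPM of these lists and above the 20.3 CPM of all genes tested. Differences between these shares were not tested.

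The controls held 11766371 and 11769392 counts and the PSME4 KD libraries 15208588 and 14845701, and the smallest count of a member in a library was 26. The 5 epithelial markers EPCAM, CDH1, KRT8, KRT18 and KRT19 summed to 3367 to 4135 CPM in control KD and 3703 to 4679 CPM in PSME4 KD. Of 4 immune markers, CD14 and CD68 were in the table, summing to 28.5 to 33.8 and 39.3 to 39.4 CPM, and 0 of 3 endothelial markers were. Of 5 fibroblast markers, COL1A1 and PDGFRA were in the table, at 13.2 to 14.02 CPM in sum in the controls and 18.0 to 20.7 CPM after the knockdown. COL1A1 was higher and PDGFRA lower, both past the threshold, and their part in the results was not tested.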

How the data were processed

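Poly(A)-selected RNA of 2 control KD and 2 PSME4 KD libraries was prepared with the SENSE mRNA kit of Lexogen, per the labels' protocols. The submitters' processing notes name cutadapt, STAR, DESeq2 and hg38. Neither versions nor the read counter nor its strand setting is given in those sources. The deposited table holds raw whole-number counts per gene, which were used here, and every gene has at least 6 counts in some library. It also holds deposited signal values (counts over a size factor) and log2 values that the authors computed, a regularised log per the file headers, neither of which was tested. The authors' log2 fold changes and p-values were read only where their deposited table is named.

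Counts were fitted in R 4.3.3 with edgeR 4.0.16 (TMM, filterByExpr, glmQLFit and glmQLFTest, group as the only term, 2 residual degrees of freedom), which tested 13497 of 15037 genes. The standard error is the fold change over the square root of F. CPM values are TMM-scaled, with a biological coefficient of variation of 15.3%. The steps were tested on simulated data. Alternatives used DESeq2 1.42.0, limma 3.58.1 (voom), other scalings and count filters, a replicate block, a threshold of 0.10, each library left out, and a GC correction (lowess, span 0.4, entered as an offset, with the GC content of a principal coding transcript of GENCODE 29, held by 97.5% of tested genes and all 76 members). Symbols were matched to RefSeq (GRCh38.p14, an assembly identical to hg38 in its chromosomes). All 76 members matched, 1 by an older symbol, and 31 overlap another gene, whose reads may be shared where the counting ignored strand.

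Members, lists and tests were chosen with earlier results of these data known. Named members are all past the threshold, the 5 highest and 5 lowest fold changes, the 3 highest and 3 lowest levels per kb, and a fixed set (MRPL12, MRPS12, MRPS18A, MRPS18B, MRPS18C, MRPS30, MRPL37, MRPL58 and MRPS36). From each list up to 4 genes with the smallest p may be named. Members named for their position in the ribosome or on a chromosome, for overlapping levels, or for passing in another fit, and MRPL14, stand outside this rule. No protein sequences were used here.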

Additional observations from a re-analysis of the deposited data

How the results depend on the processing

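The calls depended on having all 4 libraries. The number of members past the threshold was 7 and ranged from 0 to 4 with a library left out, from 0 to 2 for the large subunit (6 in the full fit) and from 0 to 2 for the small (1), in fits where a lone library is assumed to vary like the other group. At a threshold of 0.10, 13 members (17.1%; 7 higher, 6 lower) and 16.6% of all genes passed, 4 of the members in the small subunit. Other settings gave 6 to 9 members, and the share of all genes past the threshold also moved with the setting. DESeq2 gave 6 members (7.89%) beside 8.53% of all genes. A count of 9 members (11.8%) stood beside 11.98% of all genes with library size as the only scaling. The same count stood beside 14.03% with a filter of at least 50 counts and 10.80% with the GC correction and replicate block. The small subunit held 2 calls with library size as the only scaling, 2 with a filter of at least 50 counts, 2 with the GC correction and 3 with the GC correction and replicate block. Across these settings with all libraries, MRPS2, MRPL41, MRPL27 and MRPL21 kept their calls. The large-subunit median ranged from −0.11 to 0.12 and the small-subunit median from −0.23 to −0.049 with a library left out, and the latter was −0.048 with the GC correction and −0.047 with the GC correction and block. Large minus small was 0.20 with limma voom, 0.20 with the replicate block, −0.028 with the GC correction, −0.020 with both, and 0.11 to 0.16 with a library left out. The replicate block gave 8 members, adding MRPL23. Libraries that share a number did not deviate together (Pearson r = −0.018 across genes, replicate 1). With 2 libraries per group, replicate 2 mirrors replicate 1 and gives the same value, so that this is 1 comparison. Signs turned for MRPL12 (0.012 with library size only, 0.034 with voom, 0.030 with the replicate block, −0.40 to 0.48 with a library left out), MRPS18B (−0.0038 with the GC correction, −0.025 with the GC correction and block, −0.12 to 0.33 with a library left out), MRPS18C (0.062 and 0.073 in those GC fits) and MRPS36 (0.0050 with both). With a library left out, MRPL19 ran from −0.39 to 0.024, MRPS25 from −0.31 to 0.092, PTCD3 from −0.34 to 0.0059 and CHCHD1 from −0.46 to 0.15. The causes were not tested. Of 598 values over 46 genes and the alternatives, 490 kept their direction and side of the threshold, 84 lost a call, 9 gained one and 15 changed sign. The fewest counts of a member in control KD were the 82 of MRPL23.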

Other observations

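Transcripts that share a symbol stem with members but encode no ribosomal protein stood as follows. MRPL45P2 was at 24.8 and 20.8 CPM in the controls against 23.6 and 22.05 CPM after PSME4 knockdown, and MRPS31P5 at 3.11 and 4.04 against 4.53 and 4.66 CPM. Reads of these pseudogenes and of MRPL45 and MRPS31 may not be fully separable. MRPL20-AS1 was at 1.90 and 0.95 CPM in the controls against 1.84 and 0.98 CPM. MRPS30-DT was at 0.43 and 0.52 against 0.53 and 0.39 CPM.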
